A study of Solanum lycopersicum and Solanum pennellii with 32 samples.

Results

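The response of the mature root to phosphate supply was measured in the midsection of roots of the cultivated tomato Solanum lycopersicum M82. The members were the 8 midsection libraries of M82, chosen by their labels, out of 32 libraries in the series. In one group, seedlings had grown on a medium with limiting phosphate (4 libraries), and in the other on the same kind of medium with sufficient phosphate (4 libraries). All seedlings carried a 35S:TRAP construct. TRAP stands for translating ribosome affinity purification, for which a ribosomal protein carries a tag, here under the viral 35S promoter, which is active in most plant cells. The labels describe total RNA and not RNA pulled down with ribosomes. Seedlings grew at 25 degrees Celsius with 12 hours of light and were harvested 8 to 10 days after germination. About 2 cm of root halfway between shoot junction and tip was taken, and each biological replicate held 30 to 40 plants. The 8 libraries of 1 cm root tips from the same cultivar and the same phosphate conditions shared the statistical fit and are used to show where the midsection differed.

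Phosphate is taken up at the root surface by transporter proteins of epidermal and cortical cells and loaded into the xylem for the shoot. When it runs short, plant roots are known to switch on a set of genes under PHR transcription factors, which SPX proteins hold back when phosphate is plentiful. That set includes high-affinity phosphate transporters, secreted acid phosphatases and enzymes that replace phospholipids with galactolipids and sulfolipids. The midsection is differentiated tissue, with mature xylem and barrier layers, whereas the tip holds the meristem. The deposited table pairs its gene IDs with no names, and none of its 34843 IDs matched the RefSeq gene table, so none of these gene families, and no marker of a tissue or cell type, could be looked up. Genes are therefore described by level, size of change and behaviour across libraries, and 4 are named by ID.

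Limiting midsection libraries held 11338177, 7462744, 11678167 and 5382729 estimated counts, and sufficient ones 8454258, 9095141, 1084652 and 8498744. Sufficient replicate 3 was thus far shallower than the other 7. Levels are given in CPM, counts relative to a library total of 1000000; they are scaled by TMM factors and not divided by transcript length, because reads of this 3' method do not grow in number with length. A floor of 3 counts stood at 2.79 CPM in that library, against 0.247 to 0.555 CPM in the other 7. The 10 most abundant genes took 4.11% to 4.31% of the counts in limiting and 3.74% to 4.21% in sufficient midsections.

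The limiting libraries resembled each other more than the sufficient libraries did. Across the 18275 tested genes, log2(CPM + 1) values correlated at 0.902 to 0.951 between limiting midsections and at 0.781 to 0.912 between sufficient midsections. Pairs of 1 limiting and 1 sufficient library lay between, at 0.801 to 0.917. These are correlations across genes, which are not independent replicates, and they fall with shallow depth. Among libraries of at least 4000000 counts, sufficient midsections correlated at 0.843 to 0.912, and limiting midsections, which were all this deep, at 0.902 to 0.951. Of those sufficient pairs, the ones with replicate 1 stood at 0.864 and 0.843. Replicates 2 and 4 correlated at 0.912, within the limiting range. Sufficient replicates 1 and 2 each correlated best with a limiting library, replicate 3, at 0.864 and 0.917. That library, the deepest of the midsections, was also the closest to limiting replicates 1, 2 and 4. The biological coefficient of variation, the spread between replicates beyond counting error, was 0.471 among the 4 limiting and 0.787 among the 4 sufficient midsections. In sufficient midsections it was 0.699, 0.846, 0.740 and 0.810 without replicates 1, 2, 3 and 4.

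Limiting phosphate raised 175 genes and lowered 86 in the midsection (edgeR quasi-likelihood F test, called where the Benjamini-Hochberg adjusted p was under 0.05, 4 libraries a group). These were 0.958% and 0.471% of the genes tested, 1.43% together. The median rise was 2.21 on the log2 scale, with quartiles of 1.38 and 3.27, and the median fall was -1.28, with quartiles of -1.69 and -1.03. Of the genes that rose, 157 passed 2-fold, 98 passed 4-fold and 32 passed 16-fold. Of the genes that fell, 67 passed 2-fold, 10 passed 4-fold and 3 passed 16-fold. The median change over all tested genes was -0.02. The balance of rises and falls depended on the method: limma-voom called 292 rises and 380 falls, and a fit of the midsection libraries alone 186 rises and 253 falls. The total of 261 became 156, 142, 119 and 167 without limiting replicates 1, 2, 3 and 4. Without sufficient replicates 1, 2, 3 and 4 it became 308, 207, 204 and 120. Without the shallow sufficient replicate 3, 120 genes rose and 84 fell, and 165 calls were shared with the 261.

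**Figure D1:**
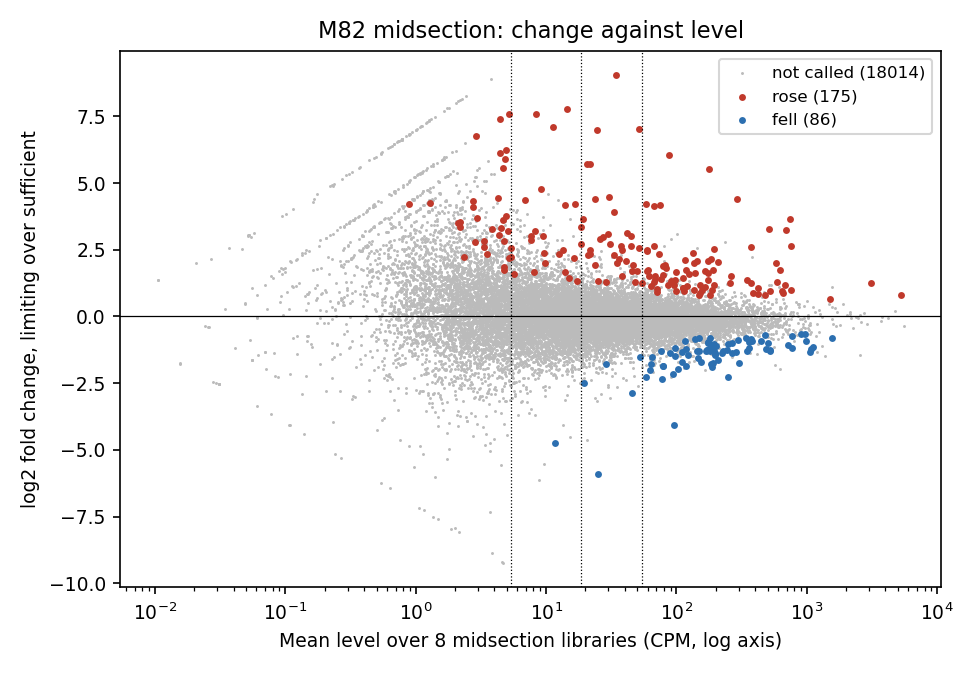
Log2 fold change of each tested gene in midsections, limiting over sufficient, against its mean CPM over the 8 midsection libraries on a log axis; dotted lines mark the limits of 4 level classes of about equal size, and a gene without a count in these libraries has no place on the axis. Of 86 genes that fell, 80 lie in the highest class, while the 175 that rose spread over all classes with their largest changes at lower levels.

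Genes that fell were nearly all abundant, while genes that rose came from every level. Split into 4 level classes of about equal size by mean CPM over the 8 midsections, the highest class began at 54.0 CPM and held 80 of the 86 genes that fell, 1.75% of its genes, and 85 of the 175 that rose, 1.86%. The lowest class, up to 5.39 CPM, held 32 genes that rose and none that fell. The next classes held 23 and 35 genes that rose and 1 and 5 that fell. The median rise was 3.52 on the log2 scale in the lowest class and 1.41 in the highest. How far the power to call a change at each level set these counts was not tested.

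Rising genes ranged from near silence to high abundance in roots with sufficient phosphate. Of the 175, 37 averaged under 1 CPM in sufficient midsections, and 30 averaged at least 100 CPM there. At limiting phosphate 78 of them averaged at least 100 CPM. No gene that rose was without a count in all 4 sufficient midsections, but 10 held only 1 to 3 counts there in all. The shallow sufficient replicate 3 had no count for 32 of the 175, against 4 to 7 in the other sufficient midsections, and no count for 3367 of all tested genes, against 634 to 1155. A gene at 0 in that library could still have stood at up to 2.79 CPM.

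Together the genes that rose took a larger part of the RNA at limiting phosphate. They held 4.14%, 4.21%, 4.94% and 4.47% of the counts of tested genes in limiting midsections, against 1.91%, 1.70%, 1.36% and 1.39% in sufficient midsections. The genes that fell held 1.56%, 1.52%, 1.52% and 1.80% in limiting midsections, against 2.89%, 3.11%, 3.57% and 3.67% in sufficient midsections. These genes were chosen by the same contrast, so the sums describe the response and do not test it. In these whole segments, fewer cells of a type and less RNA per cell cannot be told apart.

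Among the called genes, sufficient replicate 1 was most often the nearest to the limiting group. It was the highest sufficient library in 76 of the 175 genes that rose and the lowest in 34 of the 86 that fell. Sufficient replicate 4 was nearest in 23 and 8 of them, the fewest of the 4. Among limiting libraries, replicate 4 was the nearest to the sufficient group in 47 of the 86 genes that fell. Limiting replicate 3 was nearest in 10 of the 175 and 9 of the 86, the fewest of the 4 in both.

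Groups did not overlap in 165 of the 175 genes that rose and in 79 of the 86 that fell. Over all tested genes the limiting libraries lay wholly above in 5.89% and wholly below in 4.91%. Calls used the same libraries, so nothing is read from the difference.

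A core of the response was called whichever midsection library was left out. Without each of the 8 midsection libraries in turn, 92 of the 261 genes stayed called in the same direction, 75 that rose and 17 that fell. Of these, 84 were also called by DESeq2, by limma-voom, with RLE scaling and in midsections alone, 67 that rose and 17 that fell. DESeq2 called all of the 261 and so could remove none. The median changes of these 84 were 2.55 and -1.30 on the log2 scale. The 169 genes lost without at least 1 library comprised 100 that rose, with a median of 1.68, and 69 that fell, with a median of -1.28. Thus 17 of 86 falls and 75 of 175 rises were called in every one of these 8 fits. The fits share most of their libraries, so the core is not independent support for the calls. Staying called by itself favours strong changes, so nothing is read from the difference in medians.

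**Figure D2:**
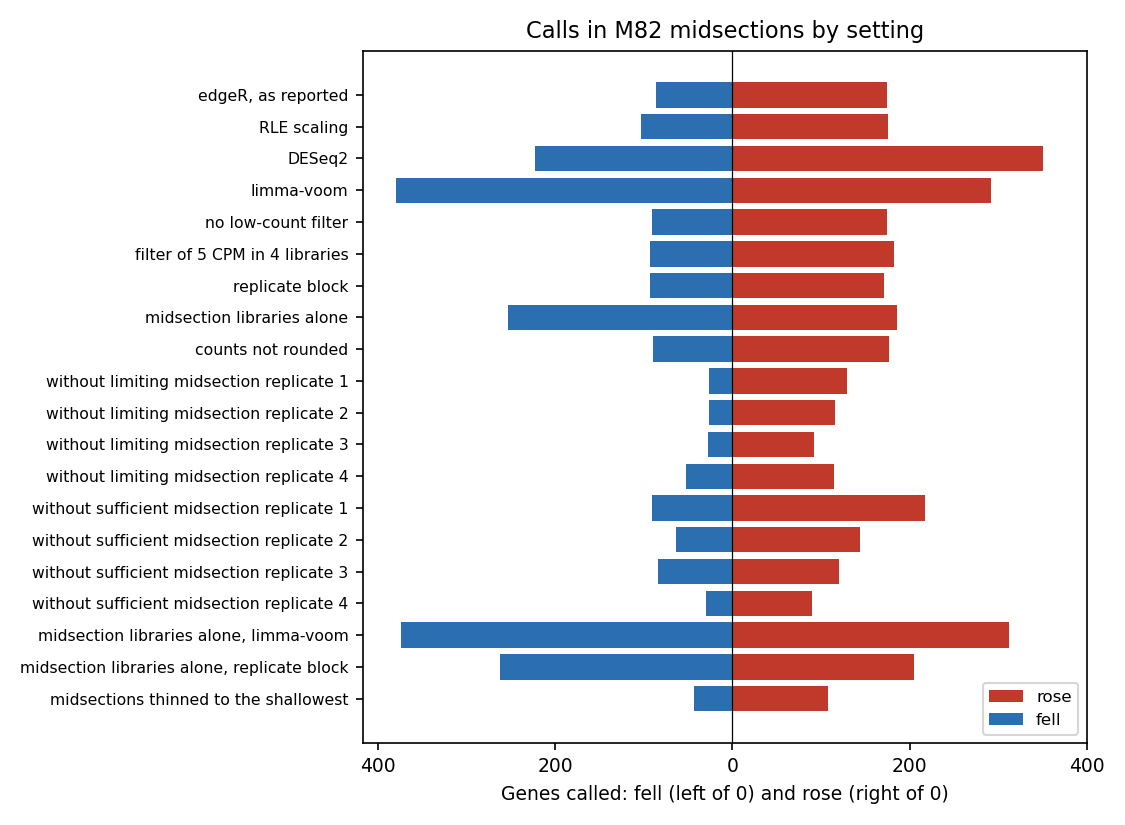
Number of genes called as fallen (left of 0) and risen (right of 0) in midsections under each setting. Falls outnumber rises with limma-voom and in midsections alone (253 and 186), and leaving out any limiting library lowers both counts, to 26 to 52 falls and 92 to 130 rises.

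The 8 largest rises among genes with non-overlapping groups and at least 5 CPM had log2 changes of 6.99 to 9.05. Their means were 8.79 to 102 CPM in limiting midsections, against 0.0278 to 0.805 CPM in sufficient midsections. In 5 of the 8 the sufficient midsections held 3 or fewer counts in all, so the size of those changes rests on few counts. The largest and the smallest of the 8 rises belonged to neighbours in ID order, each with fractional counts in 56.25% of M82 libraries. The next largest had fractional counts in 37.5% of them. The levels of these genes are treated as uncertain. The 8 largest falls, under the same limits, had log2 changes of -5.92 to -1.98, with means of 0.805 to 85.6 CPM in limiting and 22.4 to 410 CPM in sufficient midsections.

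Solyc12g009480.2.1 had the smallest adjusted p among genes with non-overlapping groups. It had 521, 467, 646 and 596 CPM in limiting midsections, against 31.6, 26.8, 38.2 and 12.5 CPM in sufficient midsections. The lowest limiting library stood far above the highest sufficient one, and sufficient replicate 4 was lowest of all. Means were 557 ± 79.2 CPM and 27.2 ± 10.9 CPM (SD, n = 4 each), a ratio of 20.5. The log2 fold change was 4.40 ± 0.33 (SE), and the adjusted p from edgeR was 8.8e-10. It was called under each of 17 other settings run for it.

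Solyc07g064130.2.1 had the highest level of the genes that rose with non-overlapping groups, and ranked 2 of all tested genes by mean CPM over the midsections. It had 5116, 7109, 6979 and 7717 CPM in limiting midsections, against 4495, 4778, 2144 and 4161 CPM in sufficient midsections. The groups were close, with limiting replicate 1 only just above sufficient replicate 2, and the shallow sufficient replicate 3 was by far the lowest. Means were 6730 ± 1123 CPM and 3895 ± 1194 CPM (SD, n = 4 each). The log2 fold change was 0.79 ± 0.20 (SE), and edgeR gave an adjusted p of 0.0361. Leaving out sufficient replicate 3 made the change 0.53, with an adjusted p in edgeR of 0.223, and the call ended under 6 of 17 settings, which also included leaving out limiting replicates 2, 3 or 4 or sufficient replicate 4.

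Solyc11g017010.2.1 had the highest level of the genes that fell with non-overlapping groups. It had 914, 1168, 1036 and 1476 CPM in limiting midsections, against 1688, 2075, 1927 and 2269 CPM in sufficient midsections. Limiting replicate 4 came nearest to the sufficient group. The means of 1149 ± 242 CPM and 1990 ± 245 CPM (SD, n = 4 each) gave a log2 fold change of -0.79 ± 0.20 (SE), with an edgeR adjusted p of 0.0407. That call ended under 6 of 17 settings, with adjusted p between 0.0996 and 0.185 without limiting replicates 1, 2 or 3 or sufficient replicates 2 or 4.

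Solyc03g005760.1.1 was next in level among such genes. It had 748, 499.6, 707 and 788 CPM in limiting midsections, against 1461, 1274, 1680 and 1700 CPM in sufficient midsections. Every limiting library was well below every sufficient one. Means were 686 ± 128 CPM and 1529 ± 201 CPM (SD, n = 4 each). Its log2 fold change was -1.16 ± 0.21 (SE), edgeR's adjusted p was 0.00248, and it was called under each of 17 settings. Its estimated counts were fractional in 87.5% of M82 libraries, so its level is treated as uncertain.

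**Figure D3:**
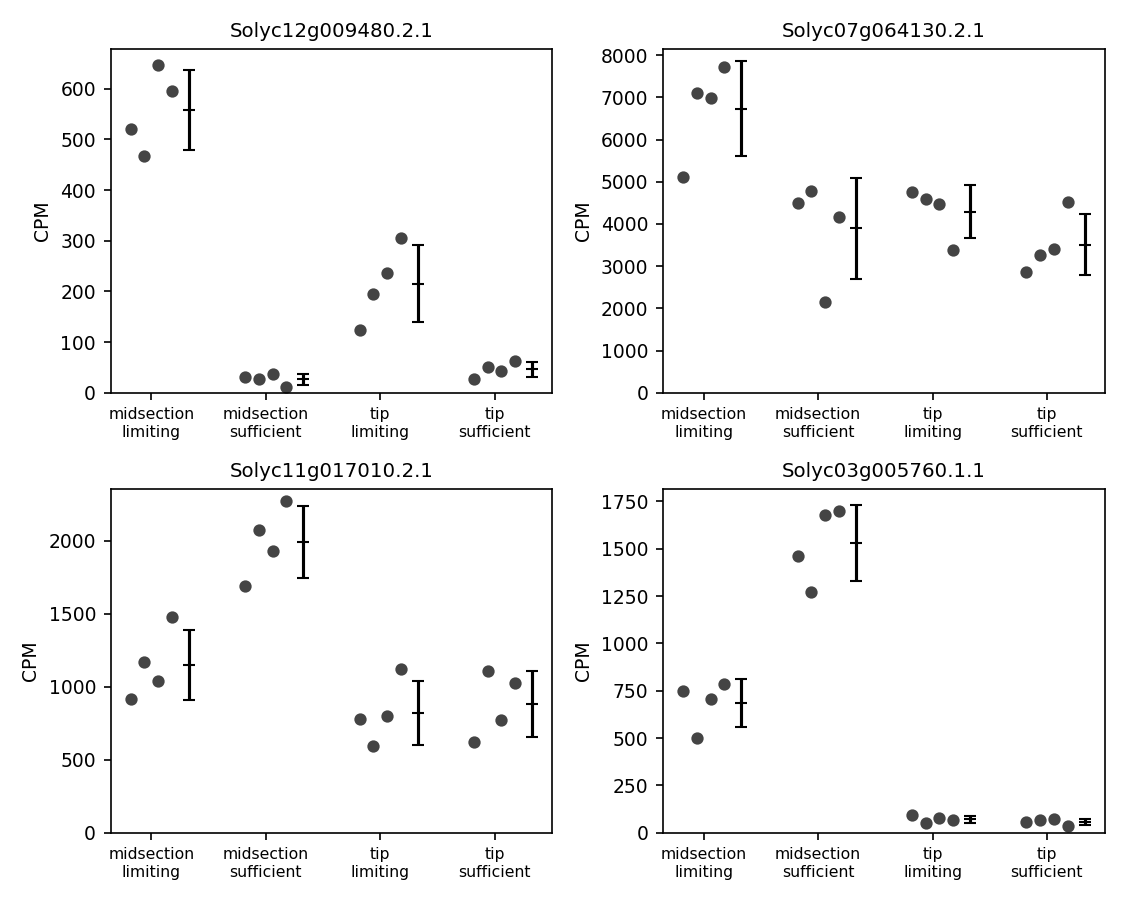
CPM of 4 genes in each M82 library, by root position and phosphate supply, with points for libraries in replicate order and bars for the mean ± SD of 4. The limiting midsections of Solyc12g009480.2.1 sit between 467 and 646 CPM, above all other libraries, and Solyc03g005760.1.1 stands at 499.6 CPM or more in midsections only.

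Of the 5 most abundant genes of the midsection, at means of 3746 to 5514 CPM, only Solyc07g064130.2.1 was called. The other 4 had log2 changes of -0.37 to 0.21, with edgeR adjusted p of 0.520 or more, which does not show that they were unaffected.

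The IDs give the place of a gene along the genome, since by the tomato naming convention the digits after Solyc stand for the chromosome and the number after g for the order along it. Genes that rose made up between 0.487% (chromosome 11) and 1.65% (chromosome 7) of the tested genes of a chromosome, and genes that fell between 0.252% (chromosome 10) and 0.812% (chromosome 11). These ranges leave out 119 tested genes whose IDs carry chromosome 0, of which none was called. Some of the genes that rose were neighbours: 15 of the 175, or 8.57%, stood directly beside another gene that rose in ID order, against 1.14% of the other tested genes. They formed 6 pairs and 1 run of 3. None of the 86 genes that fell stood beside another, against 0.577% of the other tested genes, a share at which a count of 0 among 86 is near the background. In 4 of these 7 runs each gene had fractional counts in at least 25% of the libraries. A fractional count in any M82 library was found for 37.7% of the genes that rose and 28.2% of all tested genes. Neighbouring copies can share reads, but what made counts fractional is not given in these sources. Whether shared reads had a part in these runs was not tested.

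Root tips gave other libraries in which to look at the same genes, though they shared the fit and its estimated spread, and the labels do not say whether tips and midsections came from the same plants. Limiting tips held 4806020, 4874528, 4223900 and 9737420 estimated counts, and sufficient ones 4456958, 34103546, 1553874 and 1406650. Sufficient tip replicates 3 and 4 were thus nearly as shallow as sufficient midsection replicate 3. The sufficient tip replicate 4 had no count for 4455 tested genes. No tip library was left out in turn. How far tip changes and interaction calls rest on the shallow tips was thus not tested. Of the 175 genes that rose in midsections, 132 had a tip log2 change above 0, 75.4% against 51.6% of all tested genes. Their median tip change was 0.46 on the log2 scale, against 0.03 for all tested genes. In tips 34 of them were called up, where 1.22% of all tested genes were, and none was called down. The median level of these genes was 97.4, 86.7, 105 and 90.3 CPM in limiting tips, against 52.6, 67.1, 70.5 and 65.8 CPM in sufficient tips.

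Fewer of the genes that fell in midsections had the same direction in tips. Of the 86, 30 had a tip log2 change below 0, 34.9% against 48.3% of all tested genes, and their median tip change was 0.11. Of them 2 were called down and 5 called up in tips, against 0.202% and 1.22% of all tested genes. Their median level was 58.2, 54.8, 48.8 and 64.0 CPM in limiting tips, against 43.0, 57.6, 47.6 and 42.3 CPM in sufficient tips, so those groups overlapped.

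At sufficient phosphate, genes of both kinds stood differently in the 2 positions. The median level of the genes that rose was 76.9, 72.1, 85.1 and 81.1 CPM in limiting midsections, against 17.1, 15.2, 12.1 and 12.6 CPM in sufficient midsections. Sufficient tips, at 52.6 to 70.5 CPM, lay between those groups. The mean level was higher in sufficient tips than in sufficient midsections for 143 of the 175, or 81.7%, against 49.1% of all tested genes. For the genes that fell, the median was 100, 101, 107 and 125 CPM in limiting midsections, against 234, 234, 289 and 294 CPM in sufficient midsections, and sufficient tips lay below both at 42.3 to 57.6 CPM. Only 6 of these 86 were higher in sufficient tips than in sufficient midsections. The sufficient midsections that chose the genes enter these comparisons, which by itself favours such shares.

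**Figure D4:**
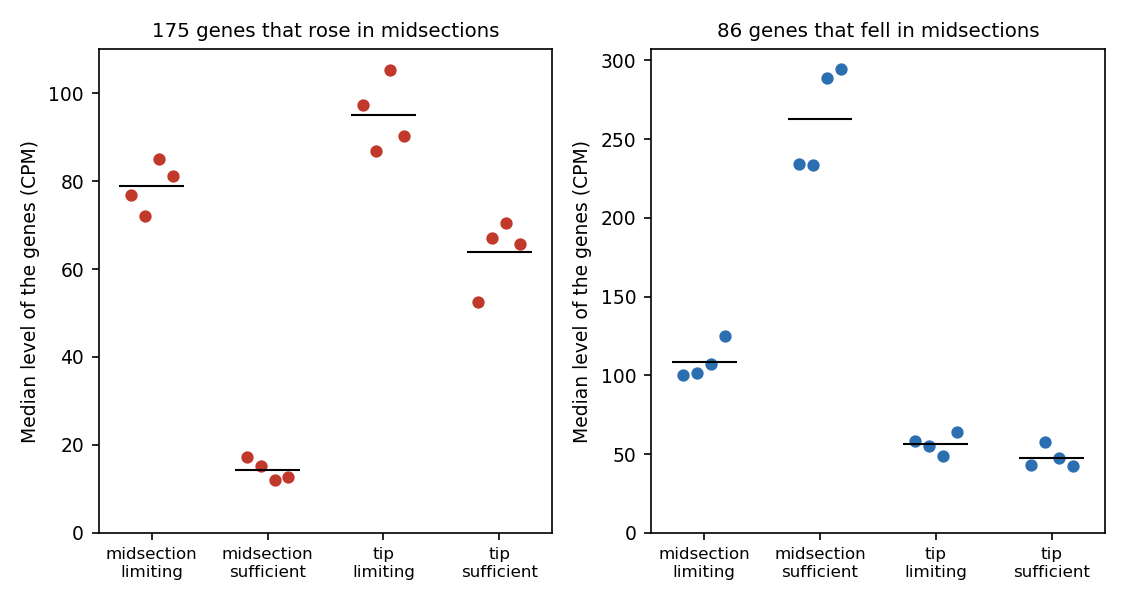
Median CPM, in each M82 library, of the genes that rose (left) and fell (right) in midsections; points are libraries in replicate order and lines the means of 4 libraries. Limiting midsections lie nearer to the tips than sufficient midsections do for both sets, and the midsection groups differ by choice of the genes.

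Over all tested genes, median correlations with tips were higher for limiting than for sufficient midsections. Among libraries of at least 4000000 counts, limiting midsections correlated with sufficient tips at 0.722 to 0.782 (median 0.757) and with limiting tips at 0.752 to 0.848 (median 0.791). Sufficient midsections correlated with sufficient tips at 0.671 to 0.741 (median 0.712) and with limiting tips at 0.699 to 0.783 (median 0.736). These were 8 and 16 pairs for limiting midsections and 6 and 12 pairs for sufficient ones. The ranges overlap, libraries are shared between pairs, and no test was made. Limiting midsections also correlated more with each other, at 0.902 to 0.951, than sufficient ones did, at 0.843 to 0.912. The sufficient pairs under 0.902 all held sufficient replicate 1. How far this spread within groups set the correlations with tips was not tested.

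The difference of the phosphate response between positions was tested directly, as midsection response minus tip response. It was called for 177 genes, 0.969% of those tested, and 0.323% were higher and 0.646% lower in the midsection (edgeR quasi-likelihood interaction test, 4 groups of 4). Of the 175 genes that rose, 42 were among them, 40 responding more strongly upward in the midsection and 2 less so. The 40 had a median midsection change of 2.50 and a median tip change of -0.23 on the log2 scale, and 15 of them had a tip change above 0, of which 5 were called. Median levels of the 40 were 85.5 CPM in limiting and 14.6 CPM in sufficient midsections, and 144 CPM in limiting and 148 CPM in sufficient tips. Of the 86 genes that fell, 24 were called, all with the lower response in the midsection. Each of the 24 had a tip change above 0, by a median of 0.76, and 5 were called up in tips. Their median levels were 147 CPM in limiting and 398 CPM in sufficient midsections, and 57.2 CPM in limiting and 24.7 CPM in sufficient tips. The interaction uses the same midsection libraries as the calls, and its choice of genes with a large difference between positions by itself favours tip changes opposite to the midsection change. The total of 177 became 289 without sufficient midsection replicate 1, 110 and 100 without limiting midsection replicates 2 and 3, 113 without sufficient midsection replicate 4, and 514 with DESeq2.

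**Figure D5:**
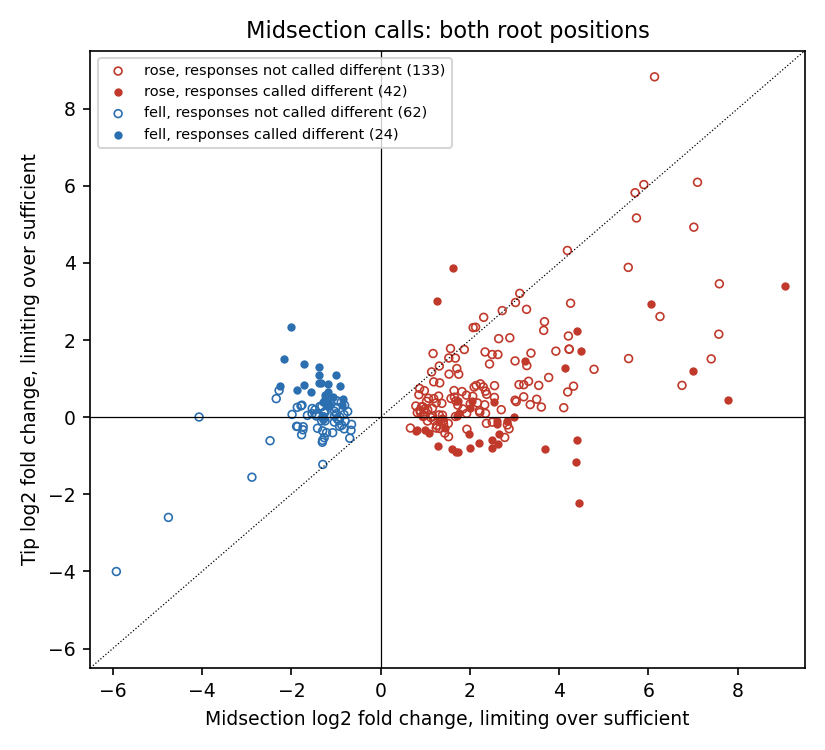
Tip against midsection log2 fold change, limiting over sufficient, for the 261 genes called in midsections; filled points are the 42 and 24 genes whose responses were called different between positions, and the dotted line marks equal changes. The filled genes that fell in midsections all lie above 0 on the tip axis, a side that their choice by the interaction favours.

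Among the named genes, Solyc12g009480.2.1 had 123, 195, 236 and 305 CPM in limiting tips, against 27.6, 51.4, 43.8 and 62.6 CPM in sufficient tips. The tip groups did not overlap, with a tip log2 change of 2.23 ± 0.30 (SE) and 1.83e-05 as edgeR's adjusted p. Its response was larger in the midsection by 2.17 ± 0.42 (SE) on the log2 scale, with an edgeR adjusted p of 0.00496. Solyc03g005760.1.1 averaged 72.0 ± 18.1 CPM in limiting tips and 56.6 ± 15.6 CPM in sufficient tips (SD, n = 4 each), both far below its midsection levels, and its response was lower in the midsection by -1.49 ± 0.31 (SE), with an edgeR adjusted p of 0.0083. The responses of Solyc07g064130.2.1 and Solyc11g017010.2.1 were not called different between positions, with interaction log2 changes of 0.50 ± 0.28 and -0.69 ± 0.29 (SE) and edgeR adjusted p of 0.514 and 0.312.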

How the data were processed

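Per the labels' protocols, total RNA was made into libraries by BrAD-seq, a strand-specific 3' method, and sequenced as single reads of 50 bases. The deposited table holds the authors' estimated counts per gene model for 34843 IDs in 16 M82 libraries, 7.57% of them fractional; the submitters' processing notes name FastQC, Bowtie 1.2.2, limma and edgeR. What made counts fractional, the annotation and the genome build are not given in these sources. All columns were assigned by the codes in the sample titles, and Pennellii libraries were not used here. The IDs were looked up in the RefSeq gene table of assembly SLM_r2.1, and 0 matched, so the planned gene lists and markers could not be filled.

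Estimated counts were rounded. Genes were kept by filterByExpr (minimum count 10, minimum total 15), scaled by TMM and tested by edgeR's robust quasi-likelihood F test (edgeR 4.0.16, R 4.3.3; two-sided, Benjamini-Hochberg threshold 0.05), in 1 fit of 4 groups of 4. SE was derived from the log2 change and the square root of F. The test was checked on simulated counts drawn with the same spread per gene in all groups. That check cannot show how the test performs where spread differs between groups, as it did between the midsection groups. Alternatives were RLE scaling, DESeq2 1.42.0, limma-voom (limma 3.58.1), other filters, unrounded counts, the replicate number as a block, midsections alone, a 2-fold limit and each midsection library left out. After seeing the data, limma-voom and the block in midsections alone were added, and midsections thinned to 1084611 counts. Members, lists and rules were chosen with earlier results of these data known. The naming rule held 29 genes (largest rises and falls, highest levels, smallest adjusted p, non-overlapping groups, at least 5 CPM). Because they have no names, 4 were named: the smallest adjusted p, the most abundant rise and the 2 most abundant falls, a choice made after the values were seen. Floors and shares of counts cover counting error only.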

Additional observations from a re-analysis of the deposited data

Results flagged for a closer look

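Of 22 sets of 4 midsection libraries examined for 1 library far from the rest (depth, genes with a count, gene group levels and named genes), 2 stood out, and chance flags about 1 in 20. Sufficient replicate 3 held 1084652 counts, far under the other 3 of its group. Limiting replicate 4 had a summed level of 17930 CPM for the genes that fell, above the 14598 to 14927 CPM of the other limiting midsections and below the 30098 to 38892 CPM of the sufficient ones.

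The phosphate response differed between midsection and tip in 177 genes by the interaction test (edgeR, adjusted p under 0.05). For Solyc12g009480.2.1 the response was 2.17 higher on the log2 scale in the midsection, and for Solyc03g005760.1.1 the difference was -1.49, with edgeR adjusted p of 0.00496 and 0.0083.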

How the results depend on the processing

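Of the 261 calls, 175 rises and 86 falls, totals became 574 with DESeq2 (351 rises, 223 falls; 428 genes had no adjusted p), 672 with limma-voom (292 and 380), 439 in midsections alone (186 and 253), and, by settings added after seeing the data, 686 with limma-voom in midsections alone (312 and 374), 467 in midsections alone with the replicate number as a block (205 and 262) and 151 with midsections thinned to the shallowest (108 and 43). Leaving out 1 midsection library gave 119 to 308 calls, 90 to 217 rises and 26 to 91 falls. Calls numbered 279 with RLE scaling, 266 without a filter, 275 with the stricter filter, 266 without rounding and 224 past 2-fold. DESeq2 called 261 and limma-voom 214 of the 261 in the same direction. The interaction count of 177 became 514 with DESeq2 and 100 to 289 without 1 midsection library. Solyc07g064130.2.1 missed the threshold in midsections alone (adjusted p 0.0636) and Solyc11g017010.2.1 with thinned libraries (0.0542). The cause of these shifts was not tested.

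With the replicate number as a block, 264 genes were called, 171 up and 93 down, of which 226 were shared with the 261. Deviations from the group means of same-numbered libraries correlated at -0.03 to 0.001 between the midsection groups. They correlated at 0.02 to 0.098 between limiting midsections and limiting tips, where different-numbered pairs stood at -0.069 to 0.026. Between sufficient midsections and sufficient tips they correlated at -0.02 to 0.05, against -0.054 to 0.036 for different-numbered pairs. None was over the 0.1 set for calling them paired. Each limiting midsection correlated best with the limiting tip of its own number. Among sufficient midsections only replicate 1 did so with sufficient tips. Whether tips and midsections were paired is thus not settled, and the main fit treated them as unpaired. Depth limits low genes: a gene without a count in sufficient replicate 3 could still have stood at up to 2.79 CPM.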
